A study of Mus musculus with 32 samples.

Results

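The striosome and matrix compartments of the striatum were followed through 8 genes listed by symbol, 4 named for striosomes (Lypd1, Kremen1, Sema5b and Nnat) and 4 named for the matrix (Epha4, Sv2b, Id4 and Gda), out of 54532 genes in the count table. The samples were striata of 32 mice at 6 months of age on a C57BL/6J background, with 8 littermates in each of 4 genotypes: wild-type, Msh3-/-, zQ175 and zQ175:Msh3-/-. Each group held 4 males and 4 females, except zQ175:Msh3-/- with 5 males and 3 females. The zQ175 line carries an expanded CAG repeat in the mouse Htt gene and models Huntington's disease, and Msh3, a mismatch repair gene needed for expansion of that repeat in somatic tissue, was disrupted in the germline by CRISPR deletion between exons. The model is of a long inherited repeat, a single age was sampled, and both alleles act in every cell of the animal. PolyA-selected libraries gave between 12359347 and 25030335 counts per mouse, with a median of 17957804.5 for wild-type mice and 17593185 for Msh3-/- mice, and of 15903741 and 16225613.5 for zQ175 and zQ175:Msh3-/- mice.

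Striosomes are islands of spiny projection neurons, rich in mu-opioid receptor, that lie within the larger calbindin-rich matrix. Neurons of both compartments use GABA and both contain direct and indirect pathway cells, but striosomes are known for their projection to the dopamine neurons of the midbrain and for limbic inputs, while the matrix receives much of the sensorimotor input. The dissected striatum holds both compartments mixed, and in bulk samples fewer cells of a type and less RNA per cell cannot be told apart.

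Msh3 served as the check of the Msh3 part of the genotype labels, and does not check the zQ175 part. Its level was between 22.95 and 27.54 CPM (counts scaled to library size with TMM factors), with a median of 23.75, in the 8 wild-type mice. In Msh3-/- mice it was between 10.44 and 13.59, with a median of 11.46. The zQ175 mice had 22.84 to 27.44, with a median of 24.13, and the zQ175:Msh3-/- mice 11.11 to 14.21, with a median of 12.85. Every mouse carrying the Msh3 deletion lay below every mouse without it, and counts of Msh3 remained in all of them. The tissue label was checked with 8 markers of spiny neurons, whose summed level in wild-type mice had a median of 8448 CPM, led by Ppp1r1b, and none of which was at 0 in any mouse.

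All 8 genes passed the filter on low counts, with 16610 genes tested in all. Their levels were compared with each other as TPM, which are scaled for transcript length and library size. In wild-type mice Nnat was the most abundant at 204 ± 27.1 TPM (SD, n = 8), followed by Id4 at 153 ± 14.9 TPM and Epha4 at 95.3 ± 4.54 TPM. Sv2b (73.9 ± 9.27 TPM), Gda (67.6 ± 6.70 TPM) and Lypd1 (65.5 ± 11.9 TPM) came next and did not differ from each other beyond their spread. Kremen1 (21.3 ± 1.79 TPM) and Sema5b (19.4 ± 2.11 TPM) were lowest and within each other's spread. The spread between wild-type mice, as a coefficient of variation of CPM, ran from 5.43% for Epha4 to 21.2% for Lypd1, but single mice set much of it. That of Lypd1 was 8.04% without wild-type male 1 and that of Kremen1, 7.99% over all 8 mice, was 3.10% without wild-type male 4, values taken after the data were seen.

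**Figure D1:**
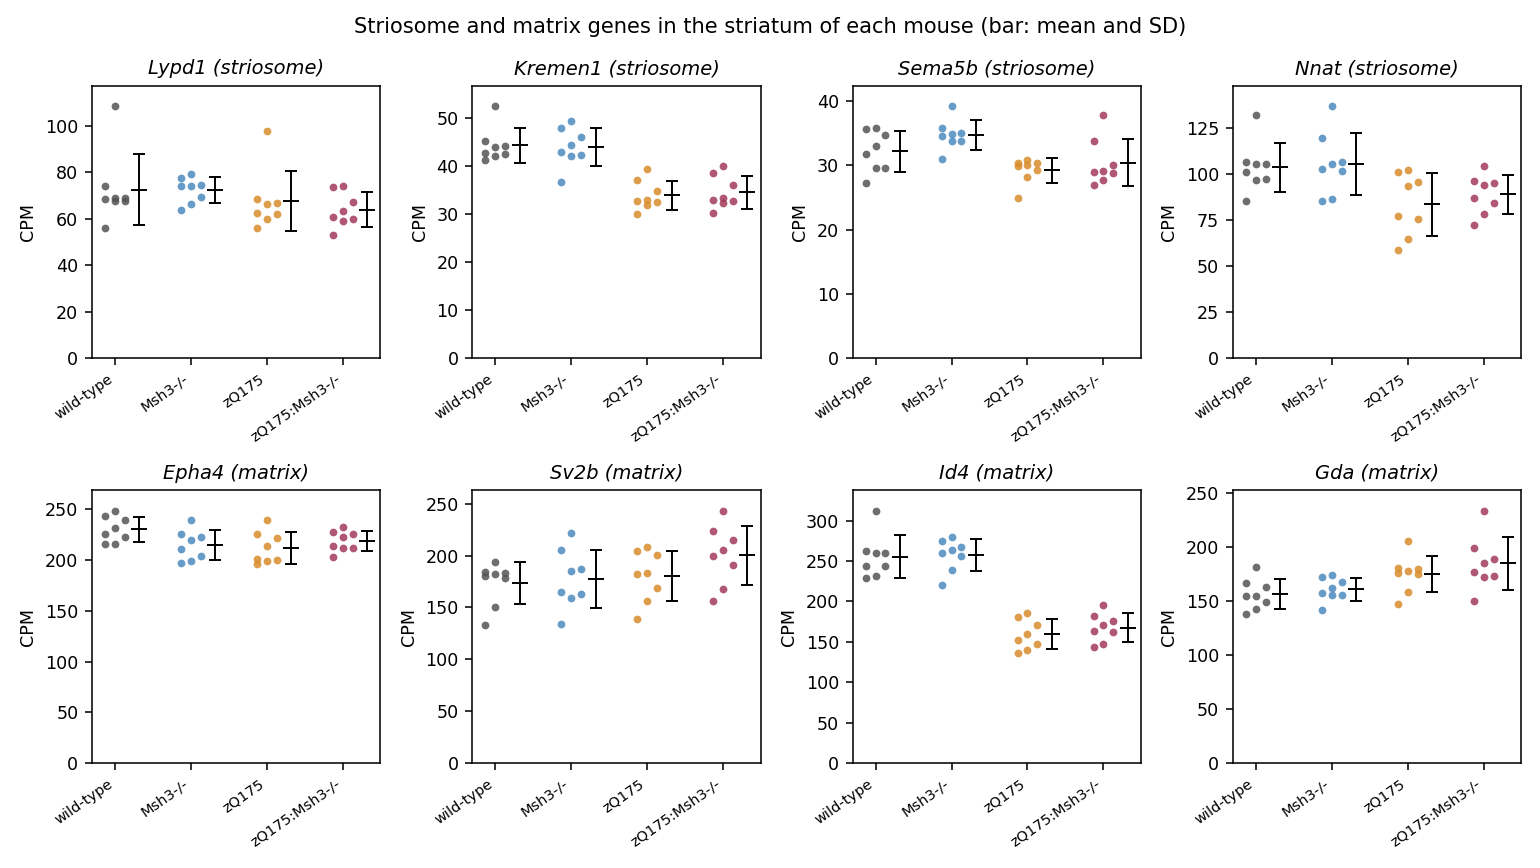
CPM of the 4 striosome and 4 matrix genes in each of the 32 mice, with 1 point per mouse, genotypes along the horizontal axis and the black bar giving the mean and SD of 8 mice. Id4 in zQ175 mice (136 to 185 CPM) lies wholly below wild-type (229 to 312 CPM), whereas the Sv2b groups overlap.

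The first comparison, zQ175 against wild-type, asked how the expanded Htt allele changed these genes where Msh3 was intact. A gene was called when edgeR's quasi-likelihood test gave an adjusted p under 0.05 over all 16610 genes and the fold change was at least 1.2, and the p-value measures the spread between mice. Of the 8 genes 3 were called, Kremen1, Nnat and Id4, all lower, against 11.6% of all genes called in either direction and 6.89% called lower. The striosome list had 2 of 4 genes lower and a median log2 fold change of -0.23, and the matrix list had 1 of 4 lower and a median of -0.03, beside 0.01 over all genes tested.

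Among the striosome genes, Kremen1 encodes a receptor for Dickkopf proteins that restrains Wnt signalling. Its level was 41.3 to 52.5 CPM in wild-type mice, with a median of 43.4. In zQ175 mice it was 30.1 to 39.5 CPM, with a median of 32.9. All 8 zQ175 mice lay below all 8 wild-type mice, which 6.63% of all genes showed in either direction. Kremen1 had a log2 fold change of -0.39 (SE 0.06, 95% interval -0.51 to -0.26, edgeR adjusted p = 4.88e-06), and the exact two-sided permutation test gave 0.000155, the smallest p that 8 against 8 mice allow.

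Nnat encodes neuronatin, a small membrane proteolipid of the endoplasmic reticulum made from an imprinted gene. Wild-type mice had 85.4 to 132 CPM, with a median of 103, and zQ175 mice 58.7 to 102 CPM, with a median of 85.4. The groups overlapped, with 4 of 8 zQ175 mice below the lowest wild-type mouse. Its log2 fold change was -0.32 (SE 0.11, 95% interval -0.54 to -0.09, edgeR adjusted p = 0.0342, exact permutation p = 0.0183). The call depended on single mice: it was lost without wild-type male 1, wild-type female 1, wild-type female 4, zQ175 male 2, zQ175 female 2, zQ175 female 3 or zQ175 female 4, each left out alone, where the log2 fold change of Nnat lay between -0.36 and -0.26 over all mice left out and the edgeR adjusted p reached 0.0865. The call was also lost in 10 of 16 alternatives. Among them were a fold threshold of 1.5, glmTreat against 1.2-fold, no filter on low counts, only the 2 groups, limma and each sex alone.

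Lypd1 encodes a lynx family protein that binds nicotinic receptors, and Sema5b a transmembrane semaphorin that guides axons. Lypd1 was at 56.2 to 109 CPM in wild-type and 56.2 to 97.8 CPM in zQ175 mice, so the groups overlapped almost fully, with 1 high mouse in each. Its log2 fold change was -0.11 (95% interval -0.33 to 0.10, edgeR adjusted p = 0.490). That value moved with the high mice, at -0.0009 without wild-type male 1 and -0.20 without zQ175 female 1, and was -0.28 in males and 0.062 in females, not called in any of these. Sema5b was at 27.2 to 35.7 CPM in wild-type and 24.9 to 30.8 CPM in zQ175 mice, with a log2 fold change of -0.14 (95% interval -0.26 to -0.01, edgeR adjusted p = 0.0932). Neither was called.

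Of the matrix genes Id4 moved furthest. It encodes a helix-loop-helix protein without a DNA-binding region that pairs with E proteins and holds them from DNA. Wild-type mice had 229 to 312 CPM, with a median of 252. The zQ175 mice had 136 to 185 CPM, with a median of 156. No zQ175 mouse reached the lowest wild-type mouse. The log2 fold change of Id4 was -0.68 (SE 0.07, 95% interval -0.82 to -0.54, edgeR adjusted p = 2.34e-09, exact permutation p = 0.000155), a level at 62.3% of wild-type.

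The other matrix genes were not called. Epha4, a receptor tyrosine kinase for ephrins, had 216 to 249 CPM in wild-type and 196 to 240 CPM in zQ175 mice, with 5 of 8 zQ175 mice below the wild-type range. Its log2 fold change of -0.12 (95% interval -0.21 to -0.03) passed the adjusted p alone (edgeR adjusted p = 0.0385) but was under 1.2-fold. That pass was lost when any of 8 of the 16 mice was left out (wild-type male 4, females 2, 3 and 4, zQ175 males 1 and 4, females 1 and 2), with the edgeR adjusted p reaching 0.0924, and in 8 of 13 alternative fits. By adjusted p alone 4 of 8 genes passed, against 26.5% of all genes, Nnat and Epha4 among them. Sv2b, a glycoprotein of synaptic vesicles, had a log2 fold change of 0.06 (95% interval -0.15 to 0.26, edgeR adjusted p = 0.729). That value was 0.0115 without wild-type male 2 and 0.11 without zQ175 male 4, not called in either. Gda, guanine deaminase of purine breakdown, had 138 to 181 CPM in wild-type and 147 to 206 CPM in zQ175 mice, with a log2 fold change of 0.16 (95% interval 0.02 to 0.30, edgeR adjusted p = 0.0745).

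**Figure D2:**
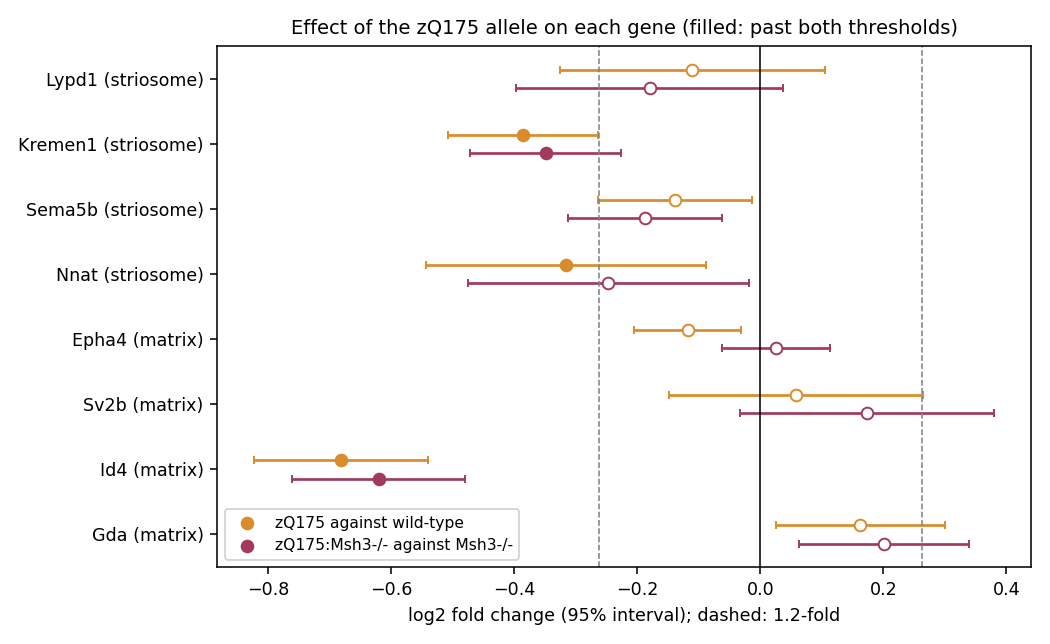
Log2 fold change of each gene for the zQ175 allele on both Msh3 backgrounds, with bars for the 95% interval, dashed lines at 1.2-fold and filled points for genes past both thresholds. Id4 (-0.68 and -0.62) and Kremen1 (-0.39 and -0.35) are filled on both backgrounds, and Nnat (-0.32) in zQ175 against wild-type.

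The second comparison, zQ175:Msh3-/- against Msh3-/-, asked the same where Msh3 was lost, with 16 other mice. Of the 8 genes 2 were called, Kremen1 and Id4, both lower, against 10.6% of all genes in either direction and 5.96% lower. Kremen1 was at 36.7 to 49.4 CPM in Msh3-/- and 30.2 to 40.1 CPM in zQ175:Msh3-/- mice. The ranges met, with 6 of 8 zQ175:Msh3-/- mice below the lowest Msh3-/- mouse, and the log2 fold change was -0.35 (SE 0.06, edgeR adjusted p = 3.23e-05). This call fell under 1.2-fold in males alone (-0.23) and with limma on log2(TPM + 1) (-0.26). Id4 was at 220 to 279 CPM in Msh3-/- and 144 to 196 CPM in zQ175:Msh3-/- mice. These groups did not overlap, as for 5.39% of all genes, and the log2 fold change was -0.62 (SE 0.07, 95% interval -0.76 to -0.48, edgeR adjusted p = 2.18e-08).

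Nnat was not called on this background, at 85.6 to 137 CPM in Msh3-/- and 72.6 to 105 CPM in zQ175:Msh3-/- mice and a log2 fold change of -0.25 (95% interval -0.47 to -0.02, edgeR adjusted p = 0.109). Sema5b and Gda passed the adjusted p but not the fold threshold. Sema5b had a log2 fold change of -0.19 (95% interval -0.31 to -0.06, edgeR adjusted p = 0.0233), with 6 of 8 zQ175:Msh3-/- mice below the Msh3-/- range. Gda had a log2 fold change of 0.20 (95% interval 0.06 to 0.34, edgeR adjusted p = 0.0282), with 5 of 8 above it. Both passes depended on single mice. Sema5b no longer passed without Msh3-/- female 1, zQ175:Msh3-/- male 3 or zQ175:Msh3-/- female 3 (edgeR adjusted p up to 0.0595), and Gda without Msh3-/- male 2, zQ175:Msh3-/- female 1 or zQ175:Msh3-/- female 2 (up to 0.0829). In 13 alternative fits Sema5b failed to pass in 4 and Gda in 3. With both, 4 of 8 genes passed by adjusted p alone, against 24.1% of all genes. The log2 fold changes were -0.18 for Lypd1, 0.03 for Epha4 and 0.17 for Sv2b, and none of these 3 passed. The median was -0.22 over the striosome list and 0.10 over the matrix list, beside 0.01 over all genes.

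The double genotype was also set against wild-type, sharing its wild-type mice with the first comparison and its zQ175:Msh3-/- mice with the second. Kremen1 (log2 fold change -0.36) and Id4 (-0.61) were called, 2 of 8 genes and both lower, against 12% of all genes in either direction and 6.49% lower. Gda had a log2 fold change of 0.24 (95% interval 0.10 to 0.38, edgeR adjusted p = 0.00748), under 1.2-fold. It passed both thresholds when wild-type male 1 or zQ175:Msh3-/- male 3 was left out, with the highest log2 fold change at 0.28. With limma, and in females alone, Sv2b and Gda were also called, both higher, which gave 4 of 8 genes. All genes were called at 7.12% to 11.1% with limma and 10.8% in females. With limma on log2(TPM + 0.1) the median log2 fold change over all genes was 0.089, and 69.45% of calls were higher. By edgeR these were 0.014 and 45.88%. The female fit held 3 zQ175:Msh3-/- mice. The log2 fold changes of Sv2b and Gda were 0.30 and 0.44 in females and 0.16 and 0.099, not called, in males.

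Loss of Msh3 within zQ175 striatum was tested by zQ175:Msh3-/- against zQ175. By edgeR 0 of 8 genes were called, against 0.00602% of all genes, which was Msh3 alone, with 614 genes at an unadjusted p under 0.05. The log2 fold changes ran from -0.08 for Lypd1 to 0.15 for Sv2b. For Id4 the difference was 0.08 (95% interval -0.07 to 0.22) and for Kremen1 0.03 (95% interval -0.09 to 0.15). Without the zQ175 allele, Msh3-/- against wild-type again gave 0 of 8 genes by edgeR and 0.00602% of all genes, Msh3 itself, with 846 genes at an unadjusted p under 0.05. In Msh3-/- against wild-type the log2 fold changes ran from -0.10 for Epha4 (95% interval -0.19 to -0.01, edgeR adjusted p = 0.926) to 0.11 for Sema5b. DESeq2 and limma also called 0 of the 8 genes in both comparisons of Msh3 loss. The difference between both zQ175 effects, the interaction, was called for 0 of 8 genes and 0% of all genes by edgeR, with 737 genes at an unadjusted p under 0.05, and for 0 genes by DESeq2. Epha4 had the largest interaction of the 8, at 0.14 on the log2 scale (95% interval 0.02 to 0.27, edgeR adjusted p = 0.999).

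To follow the compartments as lists, the mean log2 CPM of the 4 matrix genes was taken from that of the 4 striosome genes in each mouse. This difference is not per length and serves only to compare mice. It lay between -2.01 and -1.60 in wild-type mice, with a median of -1.80, and between -1.95 and -1.57 in Msh3-/- mice, with a median of -1.78. Among zQ175 mice it lay between -2.14 and -1.69, with a median of -1.87, and in zQ175:Msh3-/- mice between -2.16 and -1.84, with a median of -1.94. All 4 groups overlapped. The mean changed by -0.09 from wild-type to zQ175 (-0.067 on log2(TPM + 1), and -0.055 without zQ175 male 2, a value added after the data were seen) and by -0.19 from Msh3-/- to zQ175:Msh3-/-, beside SDs of 0.12 and 0.12 in the respective controls. In the first of these, 2 of 8 zQ175 mice lay below the lowest wild-type mouse and 1 of 8 wild-type mice above the highest zQ175 mouse. In the other, 4 of 8 zQ175:Msh3-/- mice lay below the lowest Msh3-/- mouse and 6 of 8 Msh3-/- mice above the highest zQ175:Msh3-/- mouse. The matrix genes held both the strongest fall, Id4, and the highest log2 fold changes, Gda and Sv2b. Neither Gda nor Sv2b was called in either zQ175 effect, and both 95% intervals of Sv2b included 0.

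**Figure D3:**
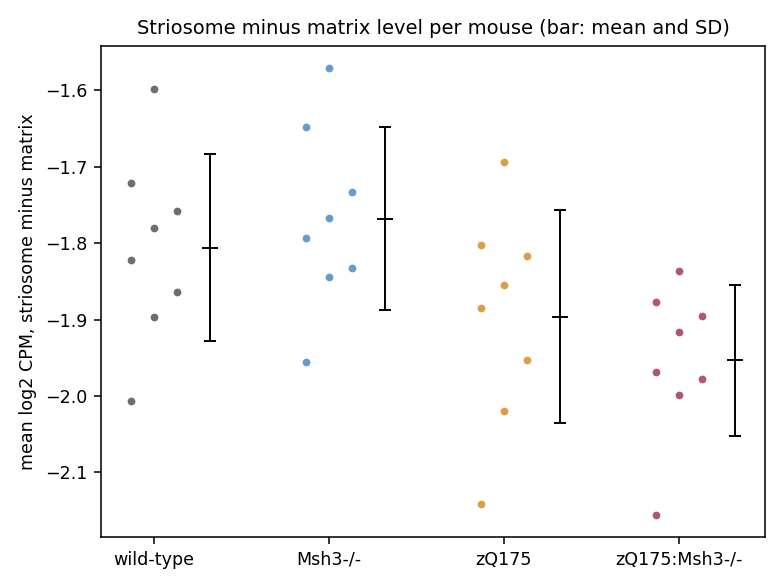
Mean log2 CPM of the striosome genes minus that of the matrix genes in each mouse, with genotypes along the horizontal axis and the black bar giving the mean and SD of 8 mice. The medians are -1.80, -1.78, -1.87 and -1.94 in order, and the 4 groups overlap.

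Further genes known for their enrichment in each compartment were counted from lists. Of 7 other striosome genes, 3 were lower in zQ175 against wild-type and 4 not called, beside 6.89% of all genes lower and 11.6% called in either direction. Those not called included Oprm1, the mu-opioid receptor gene, with medians of 2.665 CPM in wild-type and 2.695 CPM in zQ175 mice. The others were Tac1 (162.3 and 169.9 CPM), Tshz1 (59.63 and 59.23 CPM) and Nr4a1 (97.96 and 75.1 CPM). Rasgrp1, a calcium-regulated exchange factor for Ras, fell by 0.32 on the log2 scale (SE 0.04, edgeR adjusted p = 4.73e-08). Pdyn, the prodynorphin precursor, had -0.32 (edgeR adjusted p = 0.00137) and Bach2, a transcription factor, -0.32 (edgeR adjusted p = 0.0236). On the Msh3-null background Pdyn alone of the 7 was called, at -0.47 (edgeR adjusted p = 1.77e-05), beside 5.96% of all genes lower. Of 7 other matrix genes, 3 were lower in zQ175 against wild-type, beside the same 6.89%. Rasgrp2, a calcium-regulated exchange factor for Rap, had -0.74 (SE 0.06, edgeR adjusted p = 5.61e-11), Plxnd1, a receptor for semaphorin 3E, -0.42 (edgeR adjusted p = 4.16e-09), and Calb1, calbindin, -0.29 (edgeR adjusted p = 0.00783). With Msh3 lost, Rasgrp2 (-0.68) and Plxnd1 (-0.33) were lower and Stxbp6 was higher at 0.26, so 3 of 7 were called beside 10.6% of all genes. In zQ175 against wild-type Stxbp6 was also at 0.26 (edgeR adjusted p = 0.00387), just under the fold threshold and not called. Genes of both compartments were therefore among those lower in zQ175 striatum.

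Paralogues and binding partners of the 8 genes made a list of 37, of which 36 were tested, and Dkk1 was not. In zQ175 against wild-type 2 were higher and 6 lower, beside 11.6% of all genes called in either direction and 6.89% lower. With Msh3 lost 2 were higher and 5 lower, beside 10.6% and 5.96%. In zQ175 against wild-type Lynx1, a relative of Lypd1, had a log2 fold change of -0.55 (edgeR adjusted p = 2.76e-08), and the nicotinic receptor subunit gene Chrna7 -0.52 (edgeR adjusted p = 8.38e-06). Dkk2, a ligand of Kremen1, was at 1.02 to 2.96 CPM in wild-type and 0.244 to 1.27 CPM in zQ175 mice, with a log2 fold change of -1.35 (SE 0.24, edgeR adjusted p = 3.16e-05). Dlg4, which encodes the postsynaptic scaffold PSD-95, had -0.30, Efna3, a ligand of Epha4, -0.26, and the semaphorin co-receptor Plxna3 0.50 in the same comparison. On the Msh3-null background Efna3 was not called, at -0.17, and the log2 fold changes were -0.49 for Lynx1, -0.39 for Chrna7, -1.05 for Dkk2, -0.29 for Dlg4 and 0.41 for Plxna3. The other 4 genes past both thresholds in either comparison were Plxna1, Chrna4, Efna5 and Id3.

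Markers of other cell types moved unevenly. All 8 spiny neuron markers were lower in zQ175 against wild-type, against 6.89% of all genes, with a median log2 fold change of -0.84, and their sum fell from a median of 8448 CPM to 4401 CPM. The sum of 6 cortical glutamatergic neuron markers, led by Slc17a7, varied widely, from 47.8 to 307 CPM among wild-type and 50.4 to 460 CPM among Msh3-/- mice, and from 39.3 to 397 CPM among zQ175 and 133 to 664 CPM among zQ175:Msh3-/- mice. Its medians were 198 CPM in wild-type, 216 CPM in Msh3-/-, 270 CPM in zQ175 and 329 CPM in zQ175:Msh3-/- mice. All 6 cortical markers had log2 fold changes above 0 in zQ175 against wild-type (median 0.61) and in zQ175:Msh3-/- against Msh3-/- (median 0.61), with 0 of 6 called by edgeR in either and the lowest edgeR adjusted p at 0.164 and 0.118, both for Fezf2. Fezf2 alone of the 6 was called in zQ175:Msh3-/- against wild-type (log2 fold change 0.59, edgeR adjusted p = 0.0413). The summed 8 astrocyte markers, led by Slc1a2, were at 4319 to 4596 CPM in wild-type mice, with a median of 4478, and at 3698 to 3930 CPM in zQ175 mice, with a median of 3816. These sums did not overlap, as for 6.63% of single genes in either direction. Slc1a2 had a mean of 2520 CPM over all mice, so the sum was largely that of 1 gene. Of these 8 markers, 1 was called higher and 1 lower, and 5 passed the adjusted p alone, against 11.6% of all genes called in either direction and 26.5% past the adjusted p alone. The same shares apply to the next 3 lists. The 6 oligodendrocyte markers, led by Mbp, had medians of 9803 and 8984 CPM, with 1 lower and 1 past the adjusted p alone. The 6 microglia markers, led by Csf1r, had 275 and 255 CPM, with 0 called and 2 past the adjusted p alone. The 5 endothelial markers, led by Flt1, had 192 and 157 CPM, with 3 lower and 4 past the adjusted p alone. In zQ175:Msh3-/- against Msh3-/-, all 8 spiny neuron markers were lower (median log2 fold change -0.79), and by edgeR 0 of 8 astrocyte, 0 of 6 oligodendrocyte, 0 of 6 microglia and 0 of 5 endothelial markers were called, with 4, 1, 4 and 0 past the adjusted p alone, against 10.6% of all genes called, 5.96% lower and 24.1% past the adjusted p alone. The astrocyte sums met there, at 4061 to 4574 CPM in Msh3-/- and 3655 to 4188 CPM in zQ175:Msh3-/- mice. The sum of 6 ependymal and choroid plexus markers, led by Ttr, had high mice in all 4 genotypes. It ran from 43.2 to 1550 CPM in wild-type mice, with a median of 127, from 38.3 to 1784 CPM in Msh3-/- mice, with a median of 166, from 46.3 to 1805 CPM in zQ175 mice, with a median of 72.6, and from 40.2 to 2929 CPM in zQ175:Msh3-/- mice, with a median of 83.8, and 0 of 6 were called by edgeR in either zQ175 effect, with 0 past the adjusted p alone. No marker was at 0 in any mouse. The part of these cell types in the changes above was not tested, and only the cortical marker level was used as a covariate, as given below.

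The spread within genotypes was described by correlations over the 32 mice, each value taken from its genotype mean, in a family of 56 relations between the 8 genes and 7 marker sums that was chosen after the values were seen. A relation passed when the adjusted p of both r and rho was under 0.05, and 11 of 56 did, with 1 more passing by r alone (Sv2b with oligodendrocyte markers) and 1 by rho alone (Gda with cortical markers). Sv2b followed the cortical markers most closely, with Pearson's r = 0.82 and Spearman's rho = 0.82 (permutation p = 1e-05 for each, the smallest that 100000 permutations can give, adjusted p = 0.00056), and r = 0.83 without the 2 mice farthest from the median. Sema5b also rose with them (r = 0.62, rho = 0.57, permutation p = 0.00026 and 0.0012, adjusted p = 0.0069 and 0.023), with r = 0.50 without the 2 farthest mice. Id4 ran the opposite way (r = -0.52, rho = -0.52, permutation p = 0.0022 and 0.0031, adjusted p = 0.019 and 0.029), with r = -0.46 without the 2 farthest. Kremen1 rose with the cortical sum as well (r = 0.49, rho = 0.48, permutation p = 0.0059 and 0.0066, adjusted p = 0.033 and 0.042, r = 0.52 without the 2 farthest). With the level of cortical markers as a covariate, an alternative also chosen after seeing the data, Id4 had a log2 fold change of -0.63 and Kremen1 -0.43 in zQ175 against wild-type, and both stayed called on both backgrounds. In that fit Nnat was not called (-0.27, edgeR adjusted p = 0.0748, with adjusted p between 0.0182 and 1 over the alternatives, the highest with glmTreat against 1.2-fold) and Sv2b changed sign to -0.07, not called in either fit. On the Msh3-null background the covariate took Sv2b from 0.17 to 0.040 and Gda from 0.20 to 0.16, where Gda no longer passed the adjusted p. Sema5b went from -0.14 to -0.20 in zQ175 against wild-type, where it then passed the adjusted p, and from -0.19 to -0.25 on the Msh3-null background, under 1.2-fold in both.

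Sv2b, Kremen1, Sema5b and Id4 were also correlated with the astrocyte sum, Id4 in the opposite direction. These are the same genes, with the same signs, as for the cortical sum, and the astrocyte and cortical sums were not separate measures. Msh3-/- female 1 (460 CPM cortical, 4574 CPM astrocyte) and zQ175:Msh3-/- male 1 (664 and 4188 CPM) had the highest of both in their groups. No wild-type or zQ175 mouse did. Which sum each gene followed was not tested. Sv2b (r = 0.61, rho = 0.50, permutation p = 0.00046 and 0.0075, adjusted p = 0.0069 and 0.042, r = 0.50 without the 2 farthest mice) and Kremen1 (r = 0.58, rho = 0.54, permutation p = 0.00099 and 0.0023, adjusted p = 0.011 and 0.026, r = 0.42 without the 2 farthest) rose with the astrocyte sum. Sema5b rose with it too (r = 0.52, rho = 0.46, permutation p = 0.0044 and 0.01, adjusted p = 0.028 and 0.047, r = 0.42 without the 2 farthest), and Id4 fell (r = -0.46, rho = -0.47, permutation p = 0.0073 and 0.0082, adjusted p = 0.037 and 0.042, r = -0.40 without the 2 farthest). Epha4 rose with the spiny neuron sum (r = 0.60, rho = 0.60, permutation p = 0.00049 and 0.00053, adjusted p = 0.0069 and 0.015, r = 0.52 without the 2 farthest), while Gda ran against it (r = -0.55, rho = -0.56, permutation p = 0.0023 and 0.0018, adjusted p = 0.019 and 0.026, r = -0.43 without the 2 farthest). Gda also ran against the oligodendrocyte sum (r = -0.58, rho = -0.51, permutation p = 0.0034 and 0.0053, adjusted p = 0.024 and 0.042, r = -0.50 without the 2 farthest).

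**Figure D4:**
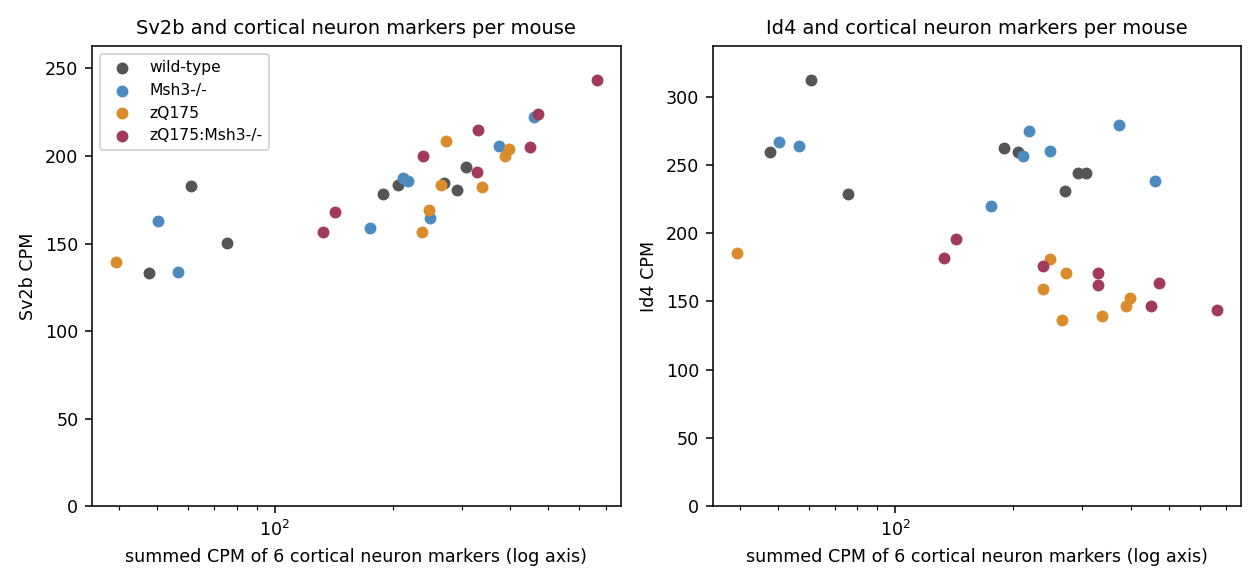
CPM of Sv2b and of Id4 in each of the 32 mice against the summed CPM of 6 cortical neuron markers on a log axis, with 1 point per mouse coloured by genotype. Sv2b rises with the markers (r = 0.82 within genotypes), while Id4 separates zQ175 carriers from the other mice across the marker range.

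Of 28 pairs among the 8 genes, also taken up after the values were seen, 6 passed by both r and rho. Lypd1 and Nnat rose and fell together (r = 0.62, rho = 0.57, permutation p = 0.00018 and 0.0015, adjusted p = 0.0025 and 0.014, r = 0.52 without the 2 farthest mice). Sema5b and Id4, from opposite compartments, ran against each other (r = -0.66, rho = -0.65, permutation p = 8e-05 and 0.00014, adjusted p = 0.0022 and 0.0039, r = -0.56 without the 2 farthest). So did Kremen1 and Id4 (r = -0.54, rho = -0.48, permutation p = 0.0031 and 0.0097, adjusted p = 0.018 and 0.045, r = -0.46 without the 2 farthest), although both were lower with the zQ175 allele. Kremen1 and Nnat, both striosome genes, also ran opposite ways within genotypes (r = -0.54, rho = -0.55, permutation p = 0.0025 and 0.0024, adjusted p = 0.018 and 0.017, r = -0.41 without the 2 farthest). Kremen1 and Sema5b, also both striosome genes, rose and fell together (r = 0.53, rho = 0.48, permutation p = 0.0031 and 0.008, adjusted p = 0.018 and 0.045, r = 0.49 without the 2 farthest), as did Sv2b and Gda of the matrix (r = 0.50, rho = 0.62, permutation p = 0.0052 and 0.00046, adjusted p = 0.024 and 0.0064, r = 0.53 without the 2 farthest). In the same mice Sema5b (r = 0.62), Kremen1 (r = 0.49) and Sv2b (r = 0.82) rose with the cortical sum and Id4 fell (r = -0.52), while Gda passed by rho alone. Whether these pairs followed the compartments or the cortical content of the samples was not tested. As a description over the same 32 mice and without a p-value, the gene most like each of the 8 among those tested by r was Thrsp for Kremen1 (r = 0.78, rho = 0.76), Tmem151b for Sema5b (0.83 and 0.77), Myh7 for Nnat (0.79 and 0.80), Ppp1r9a for Epha4 (0.82 and 0.79), Sprn for Sv2b (0.89 and 0.92), Ofd1 for Id4 (0.81 and 0.80) and Pak3 for Gda (0.82 and 0.74). For Lypd1, with its high mice, it was Hpcal1 by r (0.73), but with a rho of 0.45. At these digits Apba2 equalled Tmem151b for Sema5b (0.83 and 0.77).

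Differences by sex were tested as an addition after seeing the data, and none of the 8 genes passed. Males and females over all genotypes differed by between -0.10 for Sv2b and 0.08 for Nnat on the log2 scale, with the smallest edgeR adjusted p at 0.702. For Kremen1 the zQ175 effect was larger in males on the Msh3 wild-type background (males minus females -0.22, edgeR adjusted p = 0.982) and larger in females on the Msh3-null background (0.28, edgeR adjusted p = 0.722), and neither difference passed.

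In GRCm38 the genes lay apart, on chr1:125867622-125913101 (Lypd1, minus strand), chr11:5191552-5261558 (Kremen1, minus), chr16:35541145-35664732 (Sema5b, plus), chr2:157560078-157562522 (Nnat, plus), chr1:77367185-77515088 (Epha4, minus), chr7:75114894-75309262 (Sv2b, minus), chr13:48261228-48266026 (Id4, plus) and chr19:21391307-21473445 (Gda, minus). Whether the counting used strand is not stated. Nnat lies within Blcap on the opposite strand with 0 shared exon bases, and Lypd1 shares 1202 of 7038 exon bases with Gpr39, which had 55 counts in all mice beside 37476 of Lypd1. Id4 shares 82 and 171 exon bases with A330033J07Rik and Gm49291, which had 282 and 474 counts beside 113748.

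RefSeq gave a promoter of 300 bases (250 before and 50 after the start, GRCm38.p6) for 7 of the 8 genes, and Kremen1 had none. Those of Nnat and Id4 are shown because both genes were lower in zQ175 striatum. Capitals mark matches, on either strand, to the GC box GGGCGG or the CCAAT box; the start used for Id4 lies 112 bases before that of GENCODE.
Nnat promoter, chr2:157559828-157560127, plus strand: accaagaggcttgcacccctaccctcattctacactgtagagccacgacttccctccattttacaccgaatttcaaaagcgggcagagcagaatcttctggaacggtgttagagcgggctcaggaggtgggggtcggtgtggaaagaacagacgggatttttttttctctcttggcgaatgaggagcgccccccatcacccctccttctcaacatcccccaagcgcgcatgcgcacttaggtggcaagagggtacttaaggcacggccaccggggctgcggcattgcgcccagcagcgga
Id4 promoter, chr13:48260866-48261165, plus strand: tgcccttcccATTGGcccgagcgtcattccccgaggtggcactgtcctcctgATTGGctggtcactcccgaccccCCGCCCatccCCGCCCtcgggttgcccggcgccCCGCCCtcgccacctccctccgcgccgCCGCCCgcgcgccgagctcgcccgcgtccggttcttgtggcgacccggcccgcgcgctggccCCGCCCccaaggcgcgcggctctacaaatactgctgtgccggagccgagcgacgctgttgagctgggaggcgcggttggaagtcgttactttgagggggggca
The Id4 window held 5 matches to GGGCGG and 2 to CCAAT, and the Nnat window held 0 of either. Of 32851 promoters of this length, 35.7% held GGGCGG and 37.4% held CCAAT. The letters TATAAA (13.6% of promoters), CACGTG (7.15%) and TGACGTCA (1.79%) were in neither window. Of the 7 windows, GGGCGG was in those of Lypd1, Epha4, Sv2b and Id4, and TATAAA in that of Sv2b. The Id4 window had 39 CG pairs, against a median of 7.0 over all promoters, and that of Nnat had 17. A match is a description of the letters and not of a bound site.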

How the data were processed

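Striatal RNA of 32 mice was sequenced by the authors from polyA-selected libraries as paired-end reads on GRCm38.p6, per the labels; the aligner, counter and strand setting are not stated. The authors deposited counts per gene without normalization, and a second deposited table, named FPKM, whose columns all have the same sum and which was therefore used as TPM. Ensembl ids were given symbols from GENCODE M21 (54409 of 54532). Counts were fitted with edgeR 4.0.16 (R 4.3.3; TMM, filterByExpr by genotype, robust quasi-likelihood fit, Benjamini-Hochberg adjustment) in 1 model of 4 genotypes. Alternatives used DESeq2 1.42.0, limma 3.58.1 on log2(TPM + 0.1) or log2(TPM + 1), other filters and covariates, each sex, and each mouse left out. Functions were tested on simulated data. A floor of 3 counts is 0.243 CPM in the shallowest mouse, for counting error only. Summaries used Python 3.11.15. The members and lists were chosen with earlier results of these data known. Named genes were the 8 members, Msh3, and compartment, paralogue and partner genes past both thresholds in either zQ175 effect. Values were given for at most 6 per list by smallest adjusted p. Also named were the other striosome genes not called, Dkk1 as not tested, leading markers, Fezf2, genes most like a member, and genes that overlap a member.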

Additional observations from a re-analysis of the deposited data

Results flagged for a closer look

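Of 92 sets of 8 mice examined, 5 held a mouse whose gap to its nearest neighbour, as a ratio to the whole range on the log2 scale, passed Dixon's 95% critical value, and about 1 in 20 sets is marked this way by chance. Lypd1 in wild-type male 1 was at 109 CPM, with the other wild-type mice at 56.2 to 74.1 (ratio 0.580). Lypd1 in zQ175 female 1 was at 97.8 CPM, with the others at 56.2 to 68.8 (ratio 0.636). Kremen1 in wild-type male 4 was at 52.5 CPM, with the others at 41.3 to 45.2 (ratio 0.626). Sema5b in zQ175 male 4 was at 24.9 CPM, with the others at 28.1 to 30.8 (ratio 0.573). Id4 in wild-type female 4 was at 312 CPM, with the others at 229 to 263 (ratio 0.554). No mouse left out alone changed a call of Kremen1 or Id4 in either zQ175 effect.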

How the results depend on the processing

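Id4 was called on both Msh3 backgrounds under all 16 alternatives, with log2 fold changes from -0.81 to -0.55 in zQ175 against wild-type and from -0.63 to -0.55 in zQ175:Msh3-/- against Msh3-/-. Where a value below changed, the cause was not tested. A fold threshold of 1.5, or glmTreat against 1.2-fold, left 1 of 8 genes called in zQ175 against wild-type (3.24% and 3.86% of all genes), in zQ175:Msh3-/- against Msh3-/- (3.03% and 3.26%) and in zQ175:Msh3-/- against wild-type (3.42% and 3.76%). In zQ175:Msh3-/- against Msh3-/- the adjusted p alone gave 4 (24.1% of all genes), limma on log2(TPM + 1) 1 (8.89%), males only 1 (9.44%) and females only 4 (6.39%). For zQ175:Msh3-/- against wild-type limma gave 4 on log2(TPM + 0.1), on log2(TPM + 1) and without a filter (11.1%, 9.95% and 7.12% of all genes), and females only 4 (10.8%). Leaving out a mouse gave 2 to 3 in zQ175 against wild-type, 2 in zQ175:Msh3-/- against Msh3-/-, 2 to 3 in zQ175:Msh3-/- against wild-type and 0 elsewhere.

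In zQ175 against wild-type the call of Nnat was lost with no filter (-0.32) and with only the 2 groups (-0.31). It was lost with limma on log2(TPM + 0.1) (-0.27), on log2(TPM + 1) (-0.27) and without a filter (-0.27). It was also lost in males (-0.25), in females (-0.39) and with the cortical marker level in the model, chosen after seeing the data (-0.27). Leaving out any 1 of 7 mice lost it too (-0.31 to -0.26). Over all 16 mice left out, the log2 fold change of Nnat ran from -0.36 to -0.26. In that comparison Lypd1 was 0.062 in females and Sv2b -0.070 with the cortical marker level. In zQ175:Msh3-/- against Msh3-/- Kremen1 lost its call with limma on log2(TPM + 1) (-0.26) and in males (-0.23), and Sema5b (-0.31, and -0.11 in males) and Gda (0.35, and 0.11 in males) gained one in females. For zQ175:Msh3-/- against wild-type Sv2b gained a call with limma on log2(TPM + 0.1) (0.28), on log2(TPM + 1) (0.28), without a filter (0.28) and in females (0.30), but was 0.16 in males and 0.024 with the cortical marker level. Gda gained one likewise (0.30, 0.30, 0.30 and 0.44, with 0.099 in males) and without wild-type male 1 or zQ175:Msh3-/- male 3. Over all mice left out its value ran from 0.19 to 0.28.

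Uncalled values near 0 changed sign without being called. In zQ175:Msh3-/- against zQ175, females gave -0.18 for Kremen1 and -0.089 for Sema5b, males gave -0.012 for Nnat, -0.0089 for Id4 and -0.066 for Gda, and limma gave -0.0003 for Sema5b on log2(TPM + 0.1) and without a filter and -0.0002 on log2(TPM + 1). Leaving out a mouse there gave -0.11 to 0.017 for Lypd1 and -0.0046 to 0.063 for Kremen1. In Msh3-/- against wild-type Lypd1 was 0.0036 with the replicate block, 0.047 with limma on log2(TPM + 0.1) and without a filter, 0.046 on log2(TPM + 1), and 0.065 in females. Females gave 0.062 for Kremen1, -0.038 for Nnat and -0.043 for Id4, males -0.067 for Sv2b and -0.012 for Gda, and the cortical marker level -0.016 for Sv2b. Leaving out a mouse gave -0.053 to 0.10 for Lypd1, -0.032 to 0.030 for Kremen1, -0.036 to 0.081 for Nnat, -0.017 to 0.086 for Sv2b and -0.0079 to 0.061 for Id4. For the interaction, males gave 0.038 for Lypd1, 0.11 for Sema5b, -0.094 for Nnat, -0.083 for Id4 and -0.053 for Gda, females -0.24 for Kremen1, and leaving out a mouse -0.18 to 0.024 for Lypd1, -0.0018 to 0.071 for Kremen1 and -0.017 to 0.077 for Gda.

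The labels do not say whether mice of the same sex and number were paired. Of such pairs 2 of 8 in zQ175 against wild-type and 2 of 7 in zQ175:Msh3-/- against Msh3-/- correlated over 0.1, with medians of -0.0046 and -0.036. The same-numbered mouse was the best match for 3 of 8 zQ175 mice and for 0 of 7 zQ175:Msh3-/- mice. The replicate block gave 3 and 2 of the 8 genes called in these 2 comparisons, 2 in zQ175:Msh3-/- against wild-type and 0 elsewhere. Over all genes, called counts in zQ175 against wild-type were 1925, but 4398 by adjusted p alone, 538 at 1.5-fold, 641 with glmTreat and 1180 in males. In zQ175:Msh3-/- against Msh3-/- they were 1768, but 4002, 503 and 541 for the same rules and 1067 in females. For zQ175:Msh3-/- against wild-type they were 1992, but 4469, 568, 624 and 1244 in males, and in Msh3-/- against wild-type 1, but 3 in males. Higher genes made up 40.6% of calls in zQ175 against wild-type and 59.9% with limma on log2(TPM + 0.1), and 44.0% and 68.6% in zQ175:Msh3-/- against Msh3-/-.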
